A study of Mus musculus with 8 samples.

Results

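A set of 10 genes that are widely read as transcriptional outputs of the coactivator YAP were followed across 8 lines of mouse embryonic fibroblasts (MEFs). The 10 genes are Ccn1, Ccn2, Ankrd1, Amotl1, Amotl2, Ajuba, Axl, Crim1, F3 and Nt5e. They were selected by name from the 55401 genes in the table of estimated counts. The rule itself used no measured value, but the genes were chosen with earlier results of these data known. All 10 passed the filter on low counts, among 15461 genes that did.

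The study asked how loss of SLMAP3, a component of the STRIPAK phosphatase complex, changes gene expression in fibroblasts. The 4 SLMAP3-/- and 4 WT lines each came from a different embryo of the B6C3F1 strain at E14.5, taken without head and organs, and 1 library was sequenced per line. All 8 lines were immortalized with SV40 large T antigen and grown in medium with serum, and every group shares that viral protein. The SLMAP3-/- embryos came from mice in which a Cre transgene under the CMV promoter had removed a floxed exon 3 of Slmap, so the deletion was not limited to fibroblasts and preceded the isolation of the cells.

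In the Hippo pathway the kinases MST and LATS phosphorylate YAP and its relative TAZ, which keeps both proteins out of the nucleus. Unphosphorylated YAP and TAZ have no DNA-binding domain of their own and act through TEAD factors, which recognize a short DNA motif. In fibroblasts YAP is known to respond to cell density, to the stiffness of the substrate and to tension in the actin cytoskeleton. Earlier work in cultured cells reported that STRIPAK, through SLMAP, opposes MST. Several of the 10 genes encode regulators of the same pathway, and others encode secreted or cell surface proteins.

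The lines held between 49879059 and 63322486 estimated counts. Slmap, which checks the genotype labels, ranged from 32.7 to 44.3 TMM-normalized CPM, counts scaled to a library of fixed size, in the SLMAP3-/- lines and from 124 to 143 CPM in the WT lines, a log2 fold change of -1.84 ± 0.11 (SE, edgeR quasi-likelihood test, adjusted p = 0.00119). Of the cell type markers, 9 fibroblast genes such as the collagens summed to between 10234 and 14503 CPM. The 5 endothelial markers summed to between 9.47 and 40.5 CPM, the 5 macrophage and blood markers to between 2.12 and 5.48 CPM with Cd52 at 0 in every line, and the 5 epithelial markers to between 1.10 and 5.81 CPM. The 6 striated muscle markers summed to between 0.619 and 1.32 CPM with Myod1 at 0 in every line. In bulk RNA a lower share of cells that express a gene and less RNA per cell cannot be told apart.

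The promoters of the 10 genes are shown for the sequence that TEAD factors recognize, because that motif is the link between YAP and its targets. RefSeq entries on the GRCm38.p6 build, each with 250 bases before and 50 bases after a transcription start, matched 9 of the 10 genes, the exception being Ccn2. The TEAD hexamer GGAATG, searched on both strands and so also as CATTCC, was present in 6 of the 9 (66.7%), namely Ccn1, Axl, Amotl2, Ajuba, Crim1 and Ankrd1. Of all 32851 promoters of that length, 14.7% held it. Among those of the 9 without it, the 250 bases before the RefSeq start of Nt5e lay wholly within an annotated Nt5e exon. Those of Amotl1 lay inside the annotated gene and overlapped its exons. The AP-1 site, searched as TGACTCA and TGAGTCA, was present in 1 of the 9, F3, and in 5.20% of all promoters. The CArG box, the motif of serum response factor, was in none of the 9 and in 1.63% of all promoters. A match of this kind describes letters in a window and was not tested for binding.

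Windows of 250 bases upstream of the start are printed in lower case with the motif in capitals. The Ccn1 window, chr3:145649986-145650235 on the minus strand, holds 1 hexamer beginning 103 bases before the start. The Ajuba window, chr14:54577662-54577911 on the minus strand, holds 2 hexamers, beginning 186 and 164 bases before the start. The F3 window, chr3:121723287-121723536 on the plus strand, holds no hexamer and an AP-1 site beginning 135 bases before the start, and its distal part overlaps an exon of the noncoding gene Gm43823.
Ccn1: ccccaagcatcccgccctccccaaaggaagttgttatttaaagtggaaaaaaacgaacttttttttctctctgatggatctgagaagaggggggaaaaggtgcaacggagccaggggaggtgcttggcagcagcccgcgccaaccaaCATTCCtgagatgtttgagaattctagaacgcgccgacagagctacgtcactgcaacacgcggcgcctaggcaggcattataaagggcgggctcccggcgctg
Ajuba: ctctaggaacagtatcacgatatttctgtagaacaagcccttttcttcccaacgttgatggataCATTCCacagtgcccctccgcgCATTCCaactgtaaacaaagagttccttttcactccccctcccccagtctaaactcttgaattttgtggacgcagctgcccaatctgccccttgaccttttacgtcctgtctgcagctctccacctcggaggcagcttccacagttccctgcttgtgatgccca
F3: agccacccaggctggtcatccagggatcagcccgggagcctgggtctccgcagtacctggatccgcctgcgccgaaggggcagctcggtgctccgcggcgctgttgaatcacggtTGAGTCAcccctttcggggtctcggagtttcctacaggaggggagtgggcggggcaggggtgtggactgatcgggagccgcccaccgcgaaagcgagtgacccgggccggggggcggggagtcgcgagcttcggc

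The hexamers of 4 further genes are shown in 30-base windows, again with the motif in capitals. In Ankrd1 both hexamers lay within the annotated first exon of at least 1 transcript (chr19:36120037-36120066 and chr19:36119950-36119979, minus strand), and the Amotl2 hexamer lay within an annotated Amotl2 exon (chr9:102717727-102717756, plus strand). The Axl window (chr7:25788949-25788978, minus strand) and the Crim1 window (chr17:78200157-78200186, plus strand) overlapped no annotated exon. The Ankrd1 hexamers begin 210 and 123 bases before the RefSeq start, and those of Axl, Amotl2 and Crim1 begin 233, 65 and 79 bases before theirs.
Ankrd1, distal: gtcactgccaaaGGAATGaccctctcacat
Ankrd1, proximal: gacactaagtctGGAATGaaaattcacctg
Amotl2: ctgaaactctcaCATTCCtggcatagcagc
Axl: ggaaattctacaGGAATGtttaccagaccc
Crim1: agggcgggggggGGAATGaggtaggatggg

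None of the 10 genes differed between SLMAP3-/- and WT MEFs beyond the spread between lines. With edgeR's quasi-likelihood test 0 of 10 had an adjusted p under 0.05, beside 1 of all 15461 tested genes (0.00647%), which was Slmap. Without adjustment 0 of 10 had a p under 0.05, beside 280 of all tested genes (1.81%), and DESeq2 likewise gave 0 of 10 by either measure. In 0 of 10 genes did the 4 SLMAP3-/- lines lie wholly on one side of the 4 WT lines, beside 194 of all tested genes (1.25%). The fitted log2 fold change was above 0 for 6 genes and below 0 for 4, with a median of 0.085, and its median over all tested genes was -0.0014. Across the 10 genes the lowest unadjusted p was 0.288, for Ankrd1, and every adjusted p was 1.00. With 4 lines against 4, the exact permutation test over the 70 assignments of lines can go no lower than 0.0286.

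**Figure D1:**
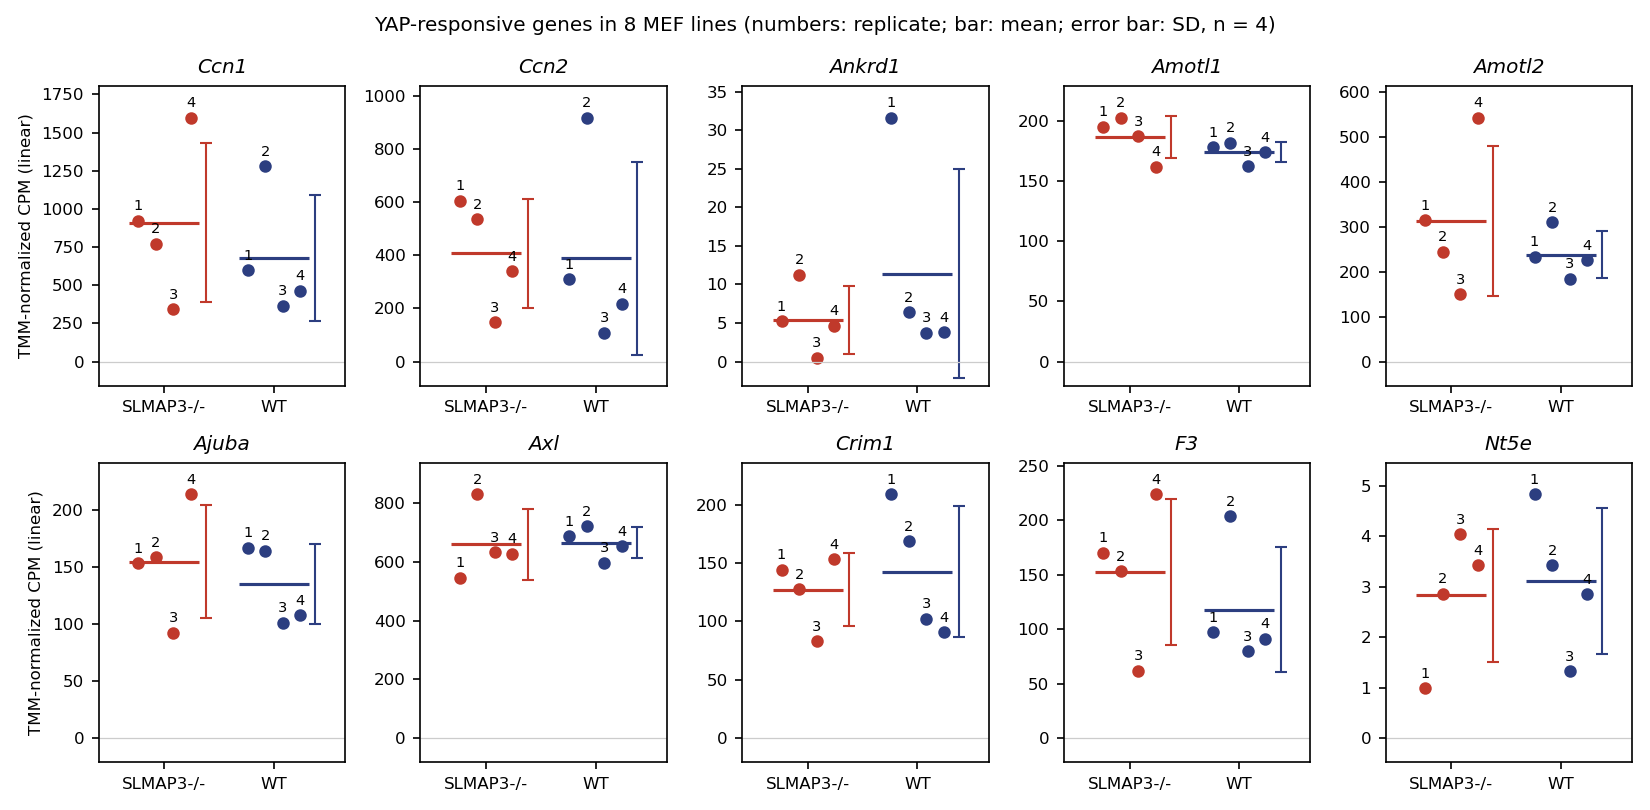
TMM-normalized CPM (y axis, linear, with 0 marked by a grey line and a scale of its own in each panel) of the 10 YAP-responsive genes in the 4 SLMAP3-/- (red) and 4 WT (blue) lines, each point being 1 line numbered by replicate, with the mean as a horizontal bar and the SD as an error bar. The genotypes overlap in all 10 panels, and SLMAP3-/- replicate 3 is the lowest line for 6 genes.

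The CCN proteins are secreted matricellular proteins that bind integrins, and Ccn1 (ENSMUSG00000028195.4, chromosome 3, 145646976 to 145649981) and Ccn2 (ENSMUSG00000019997.11, chromosome 10, 24595442 to 24598683) are the most used readouts of YAP. Ccn1 measured 922, 772, 343 and 1597 CPM in SLMAP3-/- replicates 1 to 4 and 598, 1278, 366 and 465 CPM in WT replicates 1 to 4. Its highest line and its lowest line were both SLMAP3-/-, 4.65-fold apart, and the WT lines lay between them. The mean was 909 ± 520 CPM (SD, n = 4) in SLMAP3-/- and 677 ± 412 CPM in WT MEFs, and the fitted log2 fold change was 0.42 with a 95% interval from -0.74 to 1.58 (exact permutation p = 0.543, two-sided). Without SLMAP3-/- replicate 4 that difference was 0.0042.

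Ccn2 measured 606, 536, 149 and 340 CPM in the SLMAP3-/- lines, in the same order, and 309, 919, 109 and 219 CPM in the WT lines. Here the extremes were both WT, replicate 2 and replicate 3, which were 8.41-fold apart. The log2 fold change was 0.069 with a 95% interval from -1.42 to 1.56 (exact permutation p = 0.714), and its sign turned when any of 5 lines was left out, SLMAP3-/- replicates 1 and 2 and WT replicates 1, 3 and 4, with values down to -0.24. Exons of Gm15270 overlap Ccn2 on the opposite strand. The library kit keeps strand, and the strand setting of the quantification is not given in the sources used here.

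F3 (ENSMUSG00000028128.13, chromosome 3, 121723537 to 121735048) encodes tissue factor, the cell surface receptor that starts blood coagulation. It measured 171, 154, 62.1 and 224 CPM in the SLMAP3-/- lines and 97.4, 204, 80.1 and 91.4 CPM in the WT lines. SLMAP3-/- replicates 1, 2 and 4 stood above 3 of the WT lines, while SLMAP3-/- replicate 3 was the lowest of all 8 and WT replicate 2 the second highest. SLMAP3-/- over WT, its log2 fold change was 0.37 with a 95% interval from -0.58 to 1.32 (exact permutation p = 0.486), and it stayed above 0 without any single line, between 0.12 and 0.77.

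Axl (ENSMUSG00000002602.16, chromosome 7, 25757273 to 25788705) encodes a receptor tyrosine kinase whose ligand is Gas6. Its levels were 546, 830, 632 and 628 CPM in the SLMAP3-/- lines and 688, 721, 596 and 653 CPM in the WT lines. The SLMAP3-/- lines again held both extremes, only 1.52-fold apart. The log2 fold change of -0.012 had a 95% interval from -0.33 to 0.31 (exact permutation p = 0.914), and leaving out single lines moved it between -0.14 and 0.068.

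Crim1 (ENSMUSG00000024074.8, chromosome 17, 78200248 to 78376592) encodes a transmembrane protein with cysteine-rich repeats that binds bone morphogenetic proteins. Its levels were 144, 128, 82.9 and 153 CPM in the SLMAP3-/- lines and 209, 168, 102 and 90.7 CPM in the WT lines. The 2 highest lines were WT replicates 1 and 2, and the other WT lines lay among the SLMAP3-/- lines. Between genotypes Crim1 had a log2 fold change of -0.17 with a 95% interval from -0.84 to 0.51 (exact permutation p = 0.743), and 0.081 without WT replicate 1. Exons of Fez2 overlap Crim1 on the opposite strand.

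Nt5e (ENSMUSG00000032420.8, chromosome 9, 88327197 to 88372092) encodes CD73, a surface enzyme that makes adenosine from AMP. With 57 to 300 estimated counts per line it was one of the sparse genes, at 0.987, 2.86, 4.05 and 3.43 CPM in the SLMAP3-/- lines and 4.84, 3.42, 1.32 and 2.86 CPM in the WT lines. Its lowest line was SLMAP3-/- replicate 1 and its highest WT replicate 1, 4.90-fold apart, with the other 6 lines of both genotypes interleaved. Between genotypes Nt5e had a log2 fold change of -0.14 with a 95% interval from -1.27 to 1.00 (exact permutation p = 0.771). It was 0.15 without SLMAP3-/- replicate 1 and 0.16 without WT replicate 1.

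Of the 10 genes, 3 feed back on the pathway. Amotl1 and Amotl2 encode angiomotin family scaffolds that bind YAP and hold it at junctions and actin filaments, and Ajuba encodes a LIM domain protein that binds LATS kinases. Amotl2 (ENSMUSG00000032531.15, chromosome 9, 102716672 to 102733418) measured 316, 245, 151 and 544 CPM in the SLMAP3-/- lines and 234, 310, 185 and 226 CPM in the WT lines. As for Ccn1, SLMAP3-/- replicate 4 was highest and replicate 3 lowest. The log2 fold change of 0.39 had a 95% interval from -0.41 to 1.20 (exact permutation p = 0.543), and it was -0.0093 without SLMAP3-/- replicate 4.

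Ajuba (ENSMUSG00000022178.11, chromosome 14, 54567472 to 54577558) measured 154, 158, 92.4 and 214 CPM in the SLMAP3-/- lines and 167, 164, 101 and 108 CPM in the WT lines. The same SLMAP3-/- lines, replicates 4 and 3, held its extremes, 2.31-fold apart. The log2 fold change was 0.20 with a 95% interval from -0.42 to 0.81 (exact permutation p = 0.657), and -0.0027 without SLMAP3-/- replicate 4.

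Amotl1 (ENSMUSG00000013076.17, chromosome 9, 14541966 to 14645056) was the steadiest of the 10, at 195, 203, 188 and 162 CPM in the SLMAP3-/- lines and 178, 182, 162 and 174 CPM in the WT lines. SLMAP3-/- replicates 1 to 3 were above every WT line, while SLMAP3-/- replicate 4 was the lowest of all 8, 1.25-fold below the highest. For Amotl1 the log2 fold change was 0.10 with a 95% interval from -0.11 to 0.31 (exact permutation p = 0.286). Without SLMAP3-/- replicate 4 the genotypes did not overlap, with 188 to 203 CPM against 162 to 182 CPM, as for 524 of all 15461 tested genes (3.39%) without that line. Its unadjusted p, like that of the other 9 genes in that fit, was not under 0.05.

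Ankrd1 (ENSMUSG00000024803.9, chromosome 19, 36111961 to 36120099) encodes an ankyrin repeat protein of the nucleus and the sarcomere that is induced by stretch in muscle. It was sparse, with 30 to 1960 estimated counts per line, and measured 5.19, 11.2, 0.482 and 4.66 CPM in the SLMAP3-/- lines and 31.6, 6.40, 3.73 and 3.77 CPM in the WT lines. WT replicate 1 was far above the rest and SLMAP3-/- replicate 3 far below, 65.6-fold apart, and the remaining 6 lines lay between 3.73 and 11.2 CPM. Ankrd1 thus had a log2 fold change of -1.08 with a 95% interval from -3.25 to 1.09 (exact permutation p = 0.514). Without WT replicate 1 it was 0.22.

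The intervals differ widely in what they leave room for. Those of Amotl1 and Axl reached no further than 0.33 on the log2 scale in either direction, whereas those of Ccn1, Ccn2, F3, Nt5e, Amotl2 and Ankrd1 each held a log2 change of 1 in at least one direction.

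**Figure D2:**
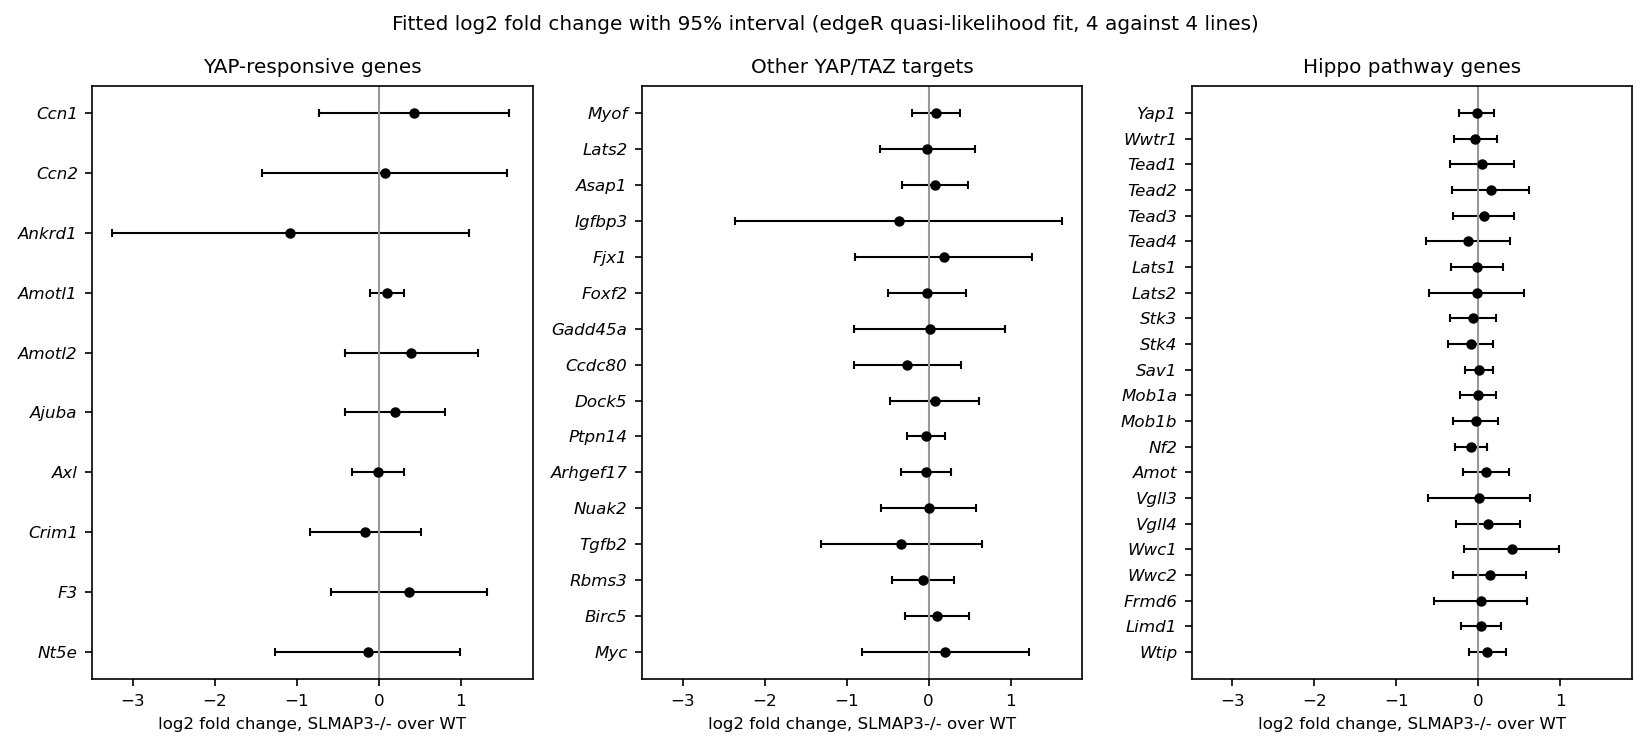
Fitted log2 fold change of SLMAP3-/- over WT MEFs (x axis; points) with its 95% interval (bars) for the 10 YAP-responsive genes, 16 other YAP/TAZ targets and 22 Hippo pathway genes, from the edgeR fit of 4 against 4 lines. Every interval includes 0, and that of Ankrd1, from -3.25 to 1.09, is the widest of the 10.

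To set the levels of the genes side by side, CPM was divided by the length in kilobases of the main annotated transcript of each gene. By median over the 8 lines the order was Ccn1, Axl, Ccn2, F3, Amotl2, Ajuba, Crim1, Amotl1, Ankrd1 and Nt5e. Ccn1 ranged from 170 to 791 CPM per kilobase with a median of 339, Axl from 128 to 195 with a median of 151, and Ccn2 from 45.6 to 383 with a median of 135. Nt5e ranged from 0.247 to 1.21 CPM per kilobase. In 8 of the 9 pairs of neighbours in that order the ranges over lines overlapped, and in the remaining pair Amotl1, with at least 18.1 CPM per kilobase, lay above Ankrd1, with at most 15.6.

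Lines that shared a genotype differed widely in most of these genes. The SD of log2 CPM within genotypes had a median of 0.65 over the 10 genes, compared with 0.40 over 16 other YAP/TAZ targets, 0.19 over 22 Hippo pathway genes and 0.28 over all tested genes. It was 1.70 for Ankrd1, which 2.30% of tested genes exceeded, and 1.11 for Ccn2, which 7.04% exceeded. Ccn1 at 0.85, Nt5e at 0.84, F3 at 0.71 and Amotl2 at 0.59 followed. Crim1 at 0.49 and Ajuba at 0.45 were also above the median gene, whereas Axl at 0.20 and Amotl1 at 0.11 were below it.

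**Figure D3:**
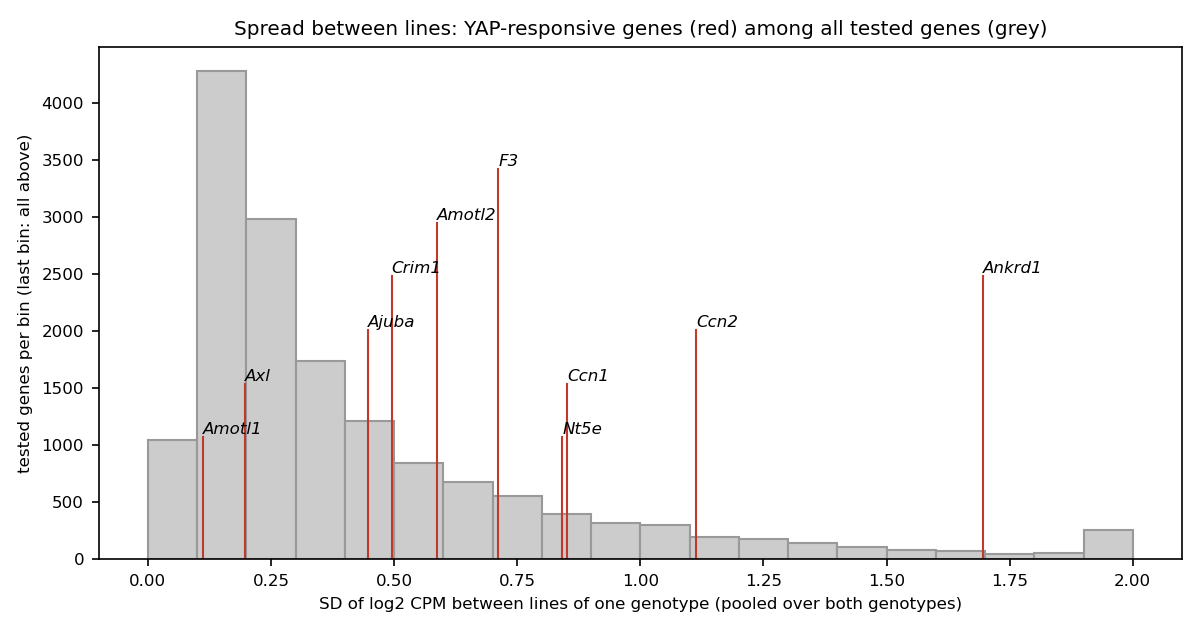
Number of tested genes (y axis; grey bars) by the SD of log2 CPM between lines of one genotype (x axis; the last bar holds all genes above its left edge), with red lines at the values of the 10 YAP-responsive genes. Amotl1 and Axl lie within the bulk of genes below the median of 0.28, and Ankrd1, at 1.70, lies in the right tail.

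The lines that were high or low tended to be the same ones from gene to gene. WT replicate 2 was above the gene's mean over the 8 lines for 10 of 10 genes, WT replicate 1 for 5, WT replicate 4 for 1 and WT replicate 3 for 0. SLMAP3-/- replicates 1 and 2 were above it for 8 genes each, SLMAP3-/- replicate 4 for 7 and SLMAP3-/- replicate 3 for 2. SLMAP3-/- replicate 3 was the lowest line for 6 genes, SLMAP3-/- replicate 4 the highest for 4 and WT replicate 1 the highest for 3. SLMAP3-/- replicate 3 and WT replicate 4, which were both low, carry the same number in their column names, and what that number stands for is not given in the sources used here, so its part in these levels was not tested.

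Covariation was measured as Pearson's r of log2 CPM over the 8 lines for each of the 45 pairs of the 10 genes. The median r was 0.394, and 11 pairs (24.4%) had an r of at least 0.7. Over all 154555 relations between one of the 10 genes and another tested gene the median was -0.029 and 6.87% reached that r. By gene that share ran from 2.06% for Axl to 12.7% for Crim1. After Benjamini-Hochberg adjustment over those 154555 relations no pair had an adjusted p under 0.05, the lowest being 0.130. The smallest two-sided p that the orderings of 8 lines can give is 4.96e-05. The 10 genes share their libraries, and so the pairs are not independent of each other.

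Ccn1, F3, Amotl2 and Ajuba formed the closest set. The highest r was that of Ccn1 and F3, at 0.978 (exact permutation p = 9.92e-05, adjusted p = 0.130), with a Spearman's rho of 1.00 (exact permutation p = 4.96e-05, adjusted p = 0.128), so that both genes ranked the 8 lines identically. It was 0.973 without the 2 lines farthest from the median of Ccn1, which were SLMAP3-/- replicates 3 and 4. Ccn1 and Amotl2 had an r of 0.936 (exact permutation p = 4.96e-05, adjusted p = 0.130) and a rho of 0.976 (exact permutation p = 0.000397, adjusted p = 0.147), with an r of 0.939 without the same 2 lines. Ccn1 and Ajuba had an r of 0.916 (exact permutation p = 0.00169, adjusted p = 0.175) and a rho of 0.833 (exact permutation p = 0.0154, adjusted p = 0.268), with an r of 0.818 without them.

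The pair of CCN genes varied together in 7 lines. Ccn1 and Ccn2 had an r of 0.805 (exact permutation p = 0.0185, adjusted p = 0.286) and a rho of 0.833 (exact permutation p = 0.0154, adjusted p = 0.268), and an r of 0.984 without the 2 lines farthest from the median. The exception was SLMAP3-/- replicate 4, which had the most Ccn1 of all lines and a middling 340 CPM of Ccn2. Without it the r was 0.982, and without any other single line it lay between 0.749 and 0.819. Taken as deviations from the mean of each genotype, the relation was of similar size (r of 0.80).

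**Figure D4:**
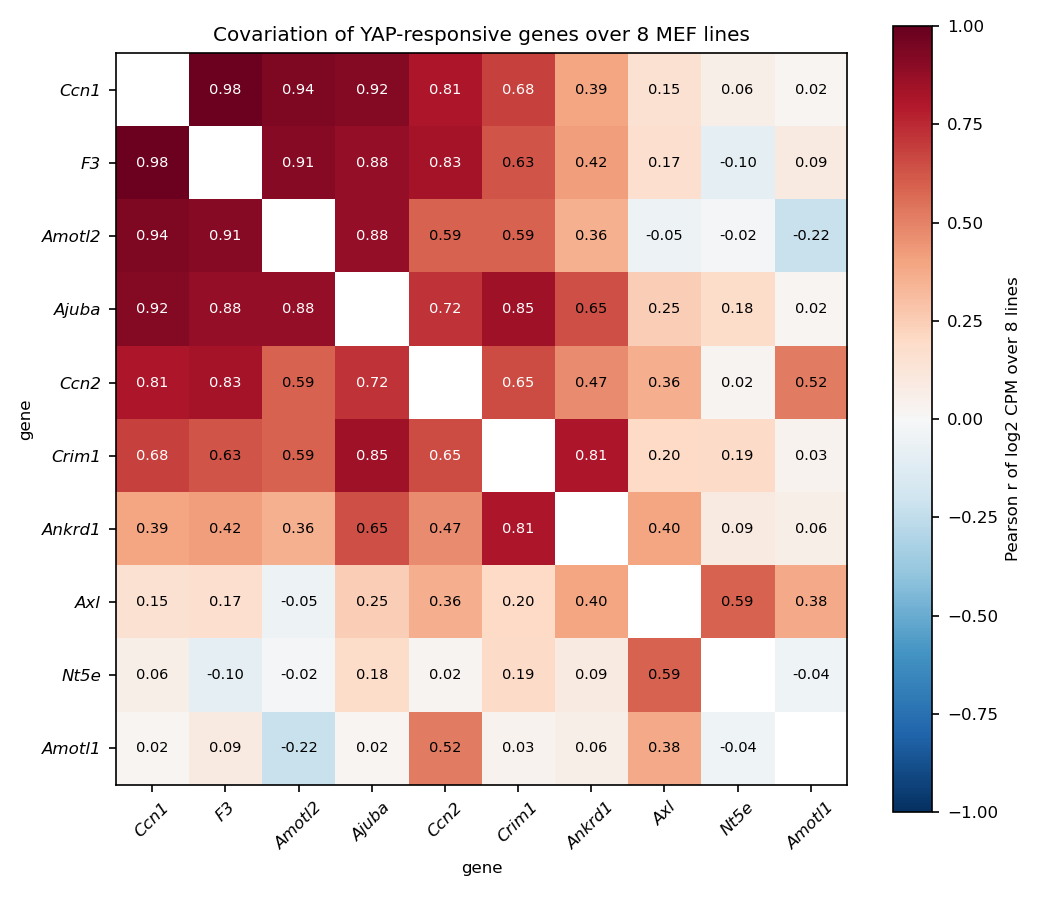
Pearson r of log2 CPM over the 8 lines (colour and printed value) for each pair of the 10 YAP-responsive genes on both axes, in the order of the covarying set first. Ccn1, F3, Amotl2 and Ajuba have an r of at least 0.876 with each other, and Axl, Nt5e and Amotl1 have no r of 0.7 or more with any of the others.

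Amotl1, Axl and Nt5e stood outside that set, each with 0 of 9 partners at an r of at least 0.7. Over all tested genes they reached that r with only 3.11%, 2.06% and 2.13%, so 0 of 9 is near their own background. The lowest r of all was that of the 2 angiomotin relatives Amotl1 and Amotl2, at -0.220 (exact permutation p = 0.611, adjusted p = 0.857) with a rho of 0.00 (exact permutation p = 1.00, adjusted p = 1.00), and it was 0.378 without SLMAP3-/- replicates 2 and 4 and 0.356 without SLMAP3-/- replicate 4 alone. F3 and Nt5e had an r of -0.0962 (exact permutation p = 0.794, adjusted p = 0.932) and a rho of -0.0238 (exact permutation p = 0.977, adjusted p = 0.993), with an r of -0.0261 without the 2 farthest lines. Amotl2 and Axl had an r of -0.0488 (exact permutation p = 0.908, adjusted p = 0.972) and a rho of -0.0476 (exact permutation p = 0.935, adjusted p = 0.979), with an r of -0.00075 without the 2 farthest lines. These 3 genes differ in their level and spread, since Amotl1 and Axl varied little at all and Nt5e varied widely at low counts.

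Crim1 and Ankrd1 had an r of 0.808 with each other (exact permutation p = 0.00975, adjusted p = 0.242) with a rho of 0.81 (exact permutation p = 0.0218, adjusted p = 0.295), and an r of 0.438 without SLMAP3-/- replicate 3 and WT replicate 1, the lines at the 2 ends of Ankrd1. Crim1 was also close to Ajuba, with an r of 0.848 (exact permutation p = 0.00905, adjusted p = 0.239) and a rho of 0.881 (exact permutation p = 0.00724, adjusted p = 0.233), and an r of 0.714 without the 2 lines farthest from the median of Ajuba. Crim1 and Ankrd1 were both highest in WT replicate 1, a line in which Ccn1 was near its middle.

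Among all 15460 other tested genes, those whose pattern over the 8 lines was most like that of Ccn1 were Zfp568, with an r of 0.985, Srf, with an r of 0.984, and Ap1s1, with an r of 0.981. Zfp568 encodes a zinc finger protein, and Ap1s1 a subunit of a clathrin adaptor complex. F3 was at rank 5 in that order, Amotl2 was at rank 52, Ajuba at rank 96, Ccn2 at rank 559 and Crim1 at rank 1450. Genes close to Ccn2 in pattern were Rac1, the GTPase of lamellipodia (r of 0.979), and the pseudogene Cdv3-ps (r of 0.971). For Ankrd1 they were Hat1, a histone acetyltransferase (r of 0.972), and Gm49769 and Gm10053 (r of 0.965 and 0.950). Their adjusted p from the exact permutation test was 0.156, 0.165 and 0.219, and the lowest over all relations was 0.130. The r values with Ankrd1 were not recomputed without its extreme lines. Hat1 spanned a log2 CPM of only 6.54 to 6.97, and Gm49769 was sparse, at -2.75 to -0.456. Cdv3-ps may share reads with Cdv3, so its count is uncertain.

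Srf encodes serum response factor, which with actin-regulated cofactors drives contractile and cytoskeletal genes. It measured 109, 87.6, 55.3 and 135 CPM in the SLMAP3-/- lines and 83.5, 124, 67.2 and 69.6 CPM in the WT lines. These put the 8 lines in exactly the order of Ccn1, with a rho of 1.00 (exact permutation p = 4.96e-05, adjusted p = 0.128) beside the r of 0.984 (exact permutation p = 4.96e-05, adjusted p = 0.130), which was 0.979 without SLMAP3-/- replicates 3 and 4. Srf had an r of 0.974 with F3, 0.934 with Amotl2, 0.907 with Ajuba and 0.790 with Ccn2, and -0.0411 with Amotl1 and 0.0556 with Axl.

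A list of 8 contractile and SRF-responsive genes (Acta2, Tagln, Cnn1, Myl9, Vcl, Srf, Tpm1 and Flna) reached an r of at least 0.7 in 33 of its 80 relations with the 10 genes (41.2%), beside the 6.87% over all relations. These relations were confined to Ccn1 and F3 (7 of 8 each), Amotl2 (6), Ccn2 (5), Ajuba (4) and Crim1 (4). Ankrd1, Amotl1, Axl and Nt5e had 0 of 8 each. Srf, already named above as close to Ccn1 in these data, supplied 6 of the 33. Tagln, an actin-binding protein of smooth muscle, had an r of 0.941 with Ccn1 (exact permutation p = 0.00057, adjusted p = 0.145), with a rho of 0.952 (exact permutation p = 0.00114, adjusted p = 0.178) and an r of 0.974 without the 2 farthest lines. It measured 1136, 1007, 522 and 1156 CPM in the SLMAP3-/- lines and 874, 1321, 521 and 570 CPM in the WT lines. The summed level of the 8 genes ranged from 6473 to 11738 CPM in the SLMAP3-/- lines and from 7584 to 12835 CPM in the WT lines, and 0 of the 8 passed the test between genotypes. Cnn1 had the lowest r with Ccn1 on this list, at 0.129, which was 0.553 without the 2 farthest lines. Myl9 went from 0.717 to 0.530 without them. Acta2, Myl9 and Vcl each reached an r of at least 0.7 with 3 of the 10 genes, and Cnn1 with 0.

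Cell type markers were set beside the same 6.87% over all relations. For cell types other than fibroblasts only 1 to 3 markers per list passed the filter, so each share rests on few genes. The macrophage and blood markers that passed the filter, Cd68 and Csf1r, reached an r of at least 0.7 in 5 of their 20 relations (25%), 4 of them with Csf1r. Csf1r, the receptor of colony-stimulating factor, lay between 0.170 and 1.19 CPM, with at most 62 estimated counts in a line. Its r with Ccn1 was 0.788 (exact permutation p = 0.0154, adjusted p = 0.272), with a rho of 0.762 (exact permutation p = 0.0368, adjusted p = 0.340) and an r of 0.686 without the 2 farthest lines. The endothelial markers Kdr and Tek reached an r of at least 0.7 in 3 of 20 relations (15.0%), the epithelial markers in 0 of 30 and the striated muscle marker in 0 of 10. Fibroblast markers did so in 2 of 90 (2.22%), with a median r of -0.244. The part of these cell types in the levels of the 10 genes was not tested.

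**Figure D5:**
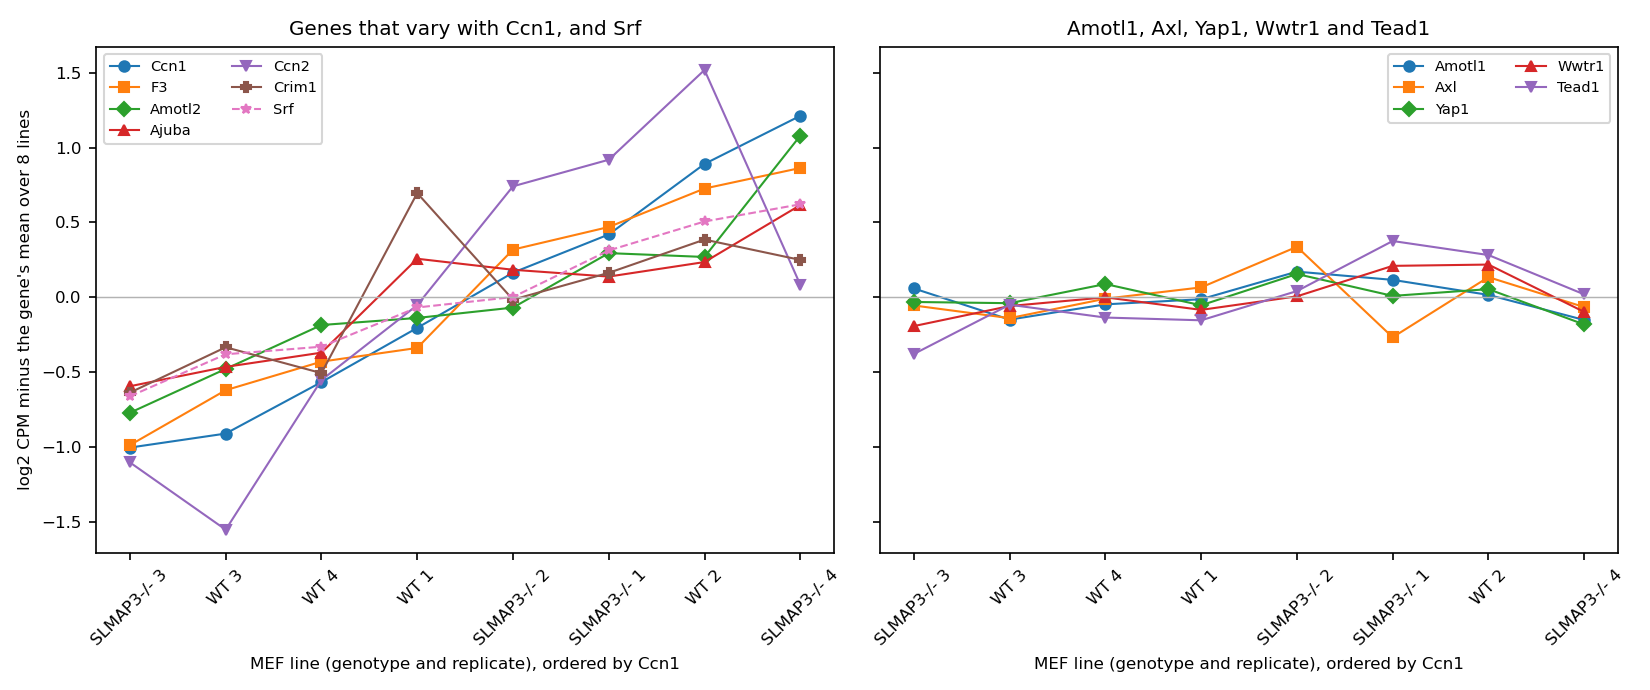
Log2 CPM minus the mean of the gene over the 8 lines (y axis) for each line (x axis, ordered by Ccn1). On the left, F3 and Srf (dashed) rise in the same order of lines as Ccn1 while Ccn2 drops in SLMAP3-/- replicate 4, and on the right Amotl1, Axl, Yap1, Wwtr1 and Tead1 stay within a narrower band.

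The transcripts of the coactivators YAP and TAZ had a narrow range. Yap1 lay between 210 and 265 CPM over the 8 lines and Wwtr1, which encodes TAZ, between 152 and 202 CPM. The log2 fold change was -0.021 ± 0.093 (SE) for Yap1 and -0.035 ± 0.11 for Wwtr1. Yap1 had an r of -0.195 with Ccn1 (exact permutation p = 0.647, adjusted p = 0.874), with a rho of -0.0714 (exact permutation p = 0.882, adjusted p = 0.962) and an r of 0.312 without the 2 farthest lines. Wwtr1 had an r of 0.515 (exact permutation p = 0.198, adjusted p = 0.589), with a rho of 0.429 (exact permutation p = 0.299, adjusted p = 0.642) and an r of 0.831 without those lines.

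Tead1, with 306 to 517 CPM, had the highest level of the 4 TEAD genes before any correction for length and ranged 1.69-fold over the lines. Its r with Ccn1 was 0.703 (exact permutation p = 0.0519, adjusted p = 0.387), with a rho of 0.738 (exact permutation p = 0.0458, adjusted p = 0.359) and an r of 0.795 without the 2 farthest lines. The r with Ccn1 was -0.479 for Tead2 (exact permutation p = 0.224, adjusted p = 0.614, rho of -0.619 with p = 0.115), 0.560 for Tead3 (exact permutation p = 0.148, adjusted p = 0.536, rho of 0.524 with p = 0.197) and 0.635 for Tead4 (exact permutation p = 0.0969, adjusted p = 0.467, rho of 0.524 with p = 0.197). Without the 2 farthest lines these were -0.0368, 0.660 and 0.467. Tead1 was lowest in SLMAP3-/- replicate 3, the line that was lowest for Ccn1 and 5 more of the 10 genes. Between genotypes the log2 fold change was 0.042 for Tead1, 0.15 for Tead2, 0.064 for Tead3 and -0.13 for Tead4, and none passed the test. YAP activity is set largely by phosphorylation and location of the protein, which RNA does not measure.

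Of the 22 Hippo pathway genes, which also include the kinases Lats1, Lats2, Stk3 and Stk4 and their partners Sav1, Mob1a, Mob1b and Nf2, 22 were tested and 0 passed, adjusted or not, with 12 fold changes above 0 and 10 below. Their median log2 fold change was 0.010. In 31 of 220 relations with the 10 genes (14.1%) they reached an r of at least 0.7, beside 6.87% over all relations. The 16 other YAP/TAZ targets, of which Lats2 is on both lists, were also all tested, and 0 passed, adjusted or not, with 7 fold changes above 0 and 9 below and a median of -0.0099. Their largest fold changes were 0.20 for Myc and 0.19 for Fjx1 upwards and -0.36 for Igfbp3 and -0.33 for Tgfb2 downwards. They reached an r of at least 0.7 in 20 of 160 relations (12.5%), beside the same 6.87%. Birc5 did so with 6 of the 10 genes and Myc with 5, so Birc5 and Myc supplied most of the 20. The median r over the 160 relations was 0.196, and the lowest was -0.797. The r with Ccn1 was 0.915 for Birc5 (exact permutation p = 0.00298, adjusted p = 0.189) and 0.816 for Myc (exact permutation p = 0.0234, adjusted p = 0.307).

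Igfbp3, which encodes a binding protein of insulin-like growth factors, was the one of these 16 with the widest range. It measured 186, 98.3, 113 and 98.1 CPM in the SLMAP3-/- lines and 7.35, 229, 56.3 and 344 CPM in the WT lines. The SLMAP3-/- lines lay within the range of the WT lines, whose extremes were 46.8-fold apart, with WT replicate 4 at the top.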

How the data were processed

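The authors assigned reads from a stranded mRNA kit to GENCODE M25 transcripts (GRCm38) with Salmon, and deposited an estimated count for every gene in each line, which carries a scaling by transcript length but none between libraries. Versions of Salmon and DESeq2 are not given in the sources used here. The authors' table of fold changes and p-values from DESeq2 was not used. Counts were rounded. In R 4.3.3, edgeR 4.0.16 (filterByExpr with a minimum count of 10, TMM, quasi-likelihood test without covariates) compared 4 SLMAP3-/- with 4 WT lines, with Benjamini-Hochberg adjustment over 15461 genes and a threshold of 0.05. Log2 CPM used a prior count of 2. Permutation tests were exact and two-sided (Python 3.11.15, numpy 2.4.6). Lines are separate embryos. Alternatives were DESeq2 1.42.0, its size factors, no filter, a replicate block, Y-linked expression as a covariate, a prior count of 0.5, Spearman's rho, genotype deviations and each line left out. Scripts were tested on simulated data. Transcript lengths and exons came from GENCODE M21 (GRCm38).

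The 10 genes, the lists and the rule for named genes were chosen with earlier results of these data known. The rule names the 10 genes, the 3 highest and 3 lowest pairs by r and that of Ccn1 and Ccn2, the 3 genes most like Ccn1, Ccn2 and Ankrd1, the 2 largest rises and falls among other targets, Yap1, Wwtr1, the TEAD genes and Slmap. A result that the rule covers is not reported here. Tagln, Csf1r, Birc5, Acta2, Myl9, Vcl and further r values of Srf, Crim1, Ankrd1, Cnn1 and Myc were named after their values were seen. Totals of 49879059 to 63322486 counts per line leave little counting error except for Ankrd1 and Nt5e.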

Additional observations from a re-analysis of the deposited data

Results flagged for a closer look

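In 3 of the 40 sets of 4 lines examined, the highest line lay apart from the other 3 by more of the range than Dixon's 95% critical ratio allows. The ratios were taken on linear CPM. Chance gives about 1 set in 20, or 2 of 40, only where values are normally distributed, which was not tested. On a log2 scale, where the ratio was not computed, a high line stands less far apart. WT replicate 1 had 31.6 CPM of Ankrd1 beside 3.73 to 6.40 CPM in the other WT lines, a ratio of 0.904. WT replicate 2 had 204 CPM of F3 beside 80.1 to 97.4 CPM in the other WT lines, a ratio of 0.860. SLMAP3-/- replicate 1 had 186 CPM of Igfbp3 beside 98.1 to 113 CPM in the other SLMAP3-/- lines, a ratio of 0.835.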

How the results depend on the processing

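No alternative gave a YAP-responsive gene, another YAP/TAZ target or a Hippo pathway gene an adjusted p under 0.05. Over all tested genes 1 was called, beside 11 with DESeq2 and 0 with the replicate block, which gave 294 genes an unadjusted p under 0.05. The deviations of lines of the same replicate number had correlations of -0.157, 0.058, 0.187 and -0.0032, and the own number was the best match for 1 of 4. These values show little likeness by replicate number. They cannot tell whether lines shared a litter, day or batch. The block turned no fold change of the 10 genes. Of 80 fold changes of the 10 genes recomputed without 1 line, 16 changed sign. The log2 ranges were -0.24 to 0.94 for Ccn2, -1.73 to 0.22 for Ankrd1, -0.0093 to 0.63 for Amotl2, -0.0027 to 0.38 for Ajuba, -0.14 to 0.068 for Axl, -0.33 to 0.081 for Crim1 and -0.39 to 0.16 for Nt5e. For Ccn1 they were 0.0042 to 0.93, for F3 0.12 to 0.77 and for Amotl1 0.064 to 0.16. Without 1 line, the count of the 10 genes whose lines did not overlap was 0 to 1 (2.09% to 4.45% of all tested genes), the median r over pairs 0.347 to 0.517, the pairs with an r of at least 0.7 numbered 10 to 15, and the r of Ccn1 and Ccn2 was 0.749 to 0.982. DESeq2's size factors shifted the median log2 fold change by -0.0058. Counts of 30 for Ankrd1 and 57 for Nt5e in their lowest lines limit the precision there.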
